A study of Mus musculus with 12 samples.

Results

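In a gene count table, 5 rows were examined in mouse nasal tissue for a shift between mature olfactory neurons and the cells that replace them. The rows were Mppe1, Omp, Sox11, Sox4 and Nbea, out of 55487 rows in the table. They were chosen by name together with Gm26735, which makes 6 names, and Gm26735 is not analysed here. Omp, Sox11 and Sox4 are genes of the olfactory neuron lineage. Mppe1 and Nbea were included for their place, because they lie opposite Gnal and Mab21l1. The choice was made with results of these 12 libraries in view, so the changes of the 5 rows between groups are given as a description and carry no test.

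The tissue was labelled nasal epithelium and came from male C57BL/6 mice of 6 weeks. The vehicle group received PBS and was labelled day 10, with replicates 2, 4, 5 and 6. The exposed groups received KDP20, which the series title ties to diesel particles, and were labelled day 5, with replicates 5, 6, 7 and 8, and day 10, with replicates 1, 2, 3 and 5. All 3 groups held 4 libraries. There was no vehicle group at day 5, so at day 5 the exposure and the day of collection cannot be told apart, and both comparisons with vehicle share the same 4 vehicle libraries. The labels do not say that each library came from a separate animal, so every p-value measures the spread between these samples.

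Odours are read by olfactory sensory neurons in the roof of the nose. A bound odorant receptor activates the G protein encoded by Gnal with its partner Gng13, which switches on the adenylyl cyclase Adcy3, and the cyclic AMP made there opens a cation channel in the cilium. These neurons are in contact with inhaled air and are replaced through life from basal stem cells, which pass through dividing progenitors and immature neurons before they mature. Omp is made by mature olfactory neurons, whereas Sox11 and Sox4 are related transcription factors of progenitors and newly formed neurons. Sox4 is also made by other epithelial, immune and stromal cells.

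The windows just upstream of Sox11 and Sox4 are shown because these genes were the members with higher counts at day 5 that belong to the neurogenesis factors, and both windows hold the letters CAGCTG, an E-box of the kind bound by neurogenic basic helix-loop-helix factors. Each sequence is read 5′ to 3′ on the minus strand, from RefSeq on GRCm38.p6, with matches to CAGCTG and to CCAAT on either strand (ATTGG when reversed) in capitals. The Sox11 window is chr12:27342719-27342968 and the Sox4 window is chr13:28953714-28953949.
Sox11: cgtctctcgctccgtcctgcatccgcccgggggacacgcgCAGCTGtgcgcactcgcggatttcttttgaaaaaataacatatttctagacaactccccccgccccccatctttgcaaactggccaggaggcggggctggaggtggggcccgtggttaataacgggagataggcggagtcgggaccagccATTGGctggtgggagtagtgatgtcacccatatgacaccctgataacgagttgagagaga
Sox4: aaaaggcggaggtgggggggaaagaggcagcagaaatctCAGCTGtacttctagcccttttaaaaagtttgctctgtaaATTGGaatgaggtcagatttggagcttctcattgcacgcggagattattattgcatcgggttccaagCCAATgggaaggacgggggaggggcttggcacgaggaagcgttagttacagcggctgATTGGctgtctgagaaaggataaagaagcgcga
The Sox11 window held 1 CAGCTG and 1 CCAAT match in 250 bases. The Sox4 window, which was shortened to 236 bases to stay outside the annotated transcript, held 1 CAGCTG and 3 CCAAT matches. Among 32851 promoter windows of 250 bases, 13.0% held CAGCTG, 33.8% held CCAAT and 3.99% held both. The motifs were chosen after the sequences had been seen, and a match describes letters and not a bound site.

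All 5 rows lie on minus-strand genes in GENCODE M21 (mm10). Omp is at chr7:98143359-98145502 and Sox11 at chr12:27334264-27342574, and neither shares exon bases with a gene on the other strand. Sox4 is at chr13:28948919-28953713, and 2616 of its 4795 exon bases, or 54.6%, are covered by exons of the long noncoding RNA Gm26735 (chr13:28943048-28951671, plus strand), all outside the Sox4 coding sequence. The Mppe1 gene encodes a phosphoesterase that trims lipid anchors of membrane proteins. It spans chr18:67225043-67245830 and its last exons meet the end of Gnal (chr18:67088216-67226792, plus strand) over 852 bases, which are 23.6% of the Mppe1 exons and 7.63% of the Gnal exons. None of those bases is coding in Gnal and 190 are coding in Mppe1. Nbea, which encodes the neuronal trafficking protein neurobeachin, spans chr3:55625195-56183701. Mab21l1, a developmental gene known from the eye, lies within it at chr3:55782510-55785001 on the plus strand, and shares 981 exon bases with noncoding Nbea exons, 497 of them coding in Mab21l1. The strand setting of the counting is not given in the sources used here, so the RNA counted in a row that has an opposite gene is not settled, and this holds for Mppe1, Sox4 and Nbea. Counts of Omp and Sox11, which have no opposite gene, depend on that setting as well. How far a low row reflects little RNA of its gene was not tested.

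Depth ran from 1658420 to 3227138 counts per library, and 3 counts, the level taken as the detection floor, equal 0.930 to 1.81 CPM, a unit that divides counts by the library total. Values below in CPM use totals scaled by TMM, which corrects for differences in composition, and errors are SDs over 4 libraries. Day 10 replicates 2, 3 and 5 stood apart from the other 9 libraries, since the row CT010467.2 took 25.5%, 17.9% and 22.9% of their counts against 7.25% to 12.6% elsewhere. The labelled tissue was checked against marker lists by summed CPM. Own rows of 19 odour transduction genes summed to 414 to 517 CPM in vehicle, and own rows of 12 sustentacular and Bowman gland genes to 667 to 1146 CPM. Own rows of 9 airway secretory genes summed to 531 to 1014 CPM in vehicle. By opposite rows, the 4 rows opposite odour transduction genes besides Mppe1 summed to 5153 to 7280 CPM in vehicle. The row opposite 1 of 9 airway secretory genes alone held 21102 to 27597 CPM. Trpc2, the channel that defines vomeronasal neurons, was at 0 in its own row in all 12 libraries. In their own rows the immune gene S100a8 and the division gene Bub1 were also at 0, and the airway gene Scgb1a1 held 0 to 1 counts. A count of 0 therefore does not show that vomeronasal neurons were absent. In bulk tissue, fewer cells of a type and less RNA per cell cannot be told apart.

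The Mppe1 row, opposite Gnal, was the member with the highest level and was lower at day 10. In vehicle replicates 2, 4, 5 and 6 it stood at 3548, 3735, 4656 and 3948 CPM. In day 5 replicates 5, 6, 7 and 8 it stood at 3229, 3178, 3836 and 4283 CPM, and in day 10 replicates 1, 2, 3 and 5 at 3448, 2010.2, 2992 and 2576 CPM. Every day 10 library lay below every vehicle library, while day 5 overlapped both groups, and day 10 replicate 1 was within the day 5 range. Group means were 3972 ± 485 CPM in vehicle, 3631 ± 527 CPM at day 5 and 2756 ± 612 CPM at day 10. The log2 fold change was -0.53 (SE 0.15) for day 10 against vehicle, -0.13 (SE 0.15) for day 5 against vehicle and -0.40 (SE 0.15) for day 10 against day 5.

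The row named for Gnal itself gave another picture. It held 149 to 463 counts per library, against 2928 to 13354 for Mppe1, so the Mppe1 row took 95.2% to 97.9% of the counts of the pair. Gnal stood at 111 ± 15.6 CPM in vehicle, 127 ± 19.9 CPM at day 5 and 106 ± 4.85 CPM at day 10. Its log2 fold change was -0.06 (SE 0.14, edgeR adjusted p 0.838) at day 10 and 0.19 (SE 0.14, edgeR adjusted p 0.554) at day 5 against vehicle. The row with nearly all counts of this locus was therefore lower at day 10, and the row that carries the name of the odour G protein did not pass the test.

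The row of Omp, the marker of mature olfactory neurons, held few counts in all groups and varied widely within each. With the strand setting not given, how far it reflects Omp RNA was not tested. Vehicle replicates 2, 4, 5 and 6 held 60, 135, 26 and 81 counts, or 24.9, 37.8, 13.2 and 36.7 CPM. Day 5 replicates 5, 6, 7 and 8 held 23.8, 13.0, 27.1 and 31.7 CPM, and day 10 replicates 1, 2, 3 and 5 held 26.2, 22.0, 25.7 and 12.6 CPM. The 3 groups overlapped throughout, and each of them had 1 library near 13 CPM. The log2 fold change was -0.40 (SE 0.31) at day 10 and -0.25 (SE 0.30) at day 5 against vehicle, with means of 28.1 ± 11.5, 23.9 ± 7.98 and 21.6 ± 6.33 CPM in vehicle, day 5 and day 10. Both differences were smaller than the SD of the vehicle group. With 1 library left out the value ran from -0.61 to -0.20 at day 10 and from -0.46 to -0.05 at day 5.

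**Figure D1:**
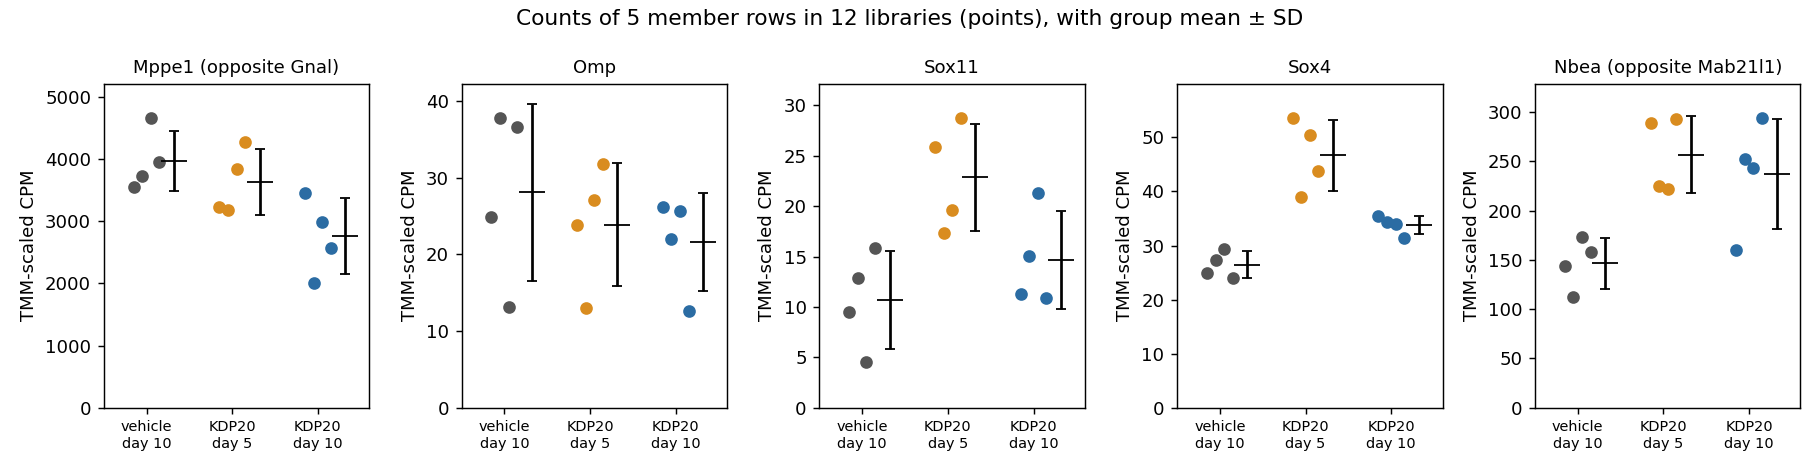
Level of each of the 5 member rows in 12 libraries, in TMM-scaled CPM from 0, with 1 point per library and the group mean ± SD (n = 4) beside it. Sox4 separates the 3 groups, Sox11 and Nbea at day 5 lie above vehicle, Mppe1 at day 10 lies below vehicle, and the groups of Omp overlap.

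The row of Sox11, a factor of newly formed neurons, was highest at day 5. Vehicle replicates 2, 4, 5 and 6 held 23, 46, 9 and 35 counts, or 9.54, 12.9, 4.57 and 15.9 CPM. Day 5 replicates 5, 6, 7 and 8 stood at 25.9, 17.3, 19.6 and 28.7 CPM, and day 10 replicates 1, 2, 3 and 5 at 11.3, 15.1, 21.3 and 10.9 CPM. Each day 5 library was above each vehicle library, although the closest pair, day 5 replicate 6 and vehicle replicate 6, differed by little, and day 10 overlapped both groups. The log2 fold change was 1.07 (SE 0.31) for day 5 against vehicle, 0.42 (SE 0.33) for day 10 against vehicle and -0.65 (SE 0.32) for day 10 against day 5. Means were 10.7 ± 4.84, 22.9 ± 5.32 and 14.7 ± 4.85 CPM in vehicle, day 5 and day 10, and the difference between day 10 and vehicle was smaller than the SD of either. With 1 library left out the day 10 value ran from 0.18 to 0.64 and the day 5 value from 0.85 to 1.29.

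Sox4, the related factor that acts beside Sox11 in many progenitors, was the member with the narrowest spread and the clearest order of groups. Vehicle replicates 2, 4, 5 and 6 stood at 24.9, 27.4, 29.4 and 24.0 CPM. The day 10 replicates 1, 2, 3 and 5 stood at 35.5, 34.3, 33.9 and 31.4 CPM, and day 5 replicates 5, 6, 7 and 8 at 53.5, 39.0, 50.4 and 43.8 CPM. No library of one group reached into another: vehicle was lowest, day 10 intermediate and day 5 highest. The log2 fold change was 0.82 (SE 0.18) for day 5 and 0.35 (SE 0.18) for day 10 against vehicle, and -0.47 (SE 0.18) between day 10 and day 5. Means were 26.4 ± 2.46, 46.7 ± 6.55 and 33.8 ± 1.72 CPM in vehicle, day 5 and day 10. These came from 50 to 126 counts per library, and the exons shared with Gm26735 make up more than the rest of the Sox4 exons.

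The Nbea row, opposite Mab21l1, was higher at both days. Vehicle replicates 2, 4, 5 and 6 stood at 144, 112, 173 and 158 CPM. Day 5 replicates 5, 6, 7 and 8 stood at 288, 225, 222 and 293 CPM, and day 10 replicates 1, 2, 3 and 5 at 160.0, 253, 243 and 294 CPM. All day 5 libraries were above all vehicle libraries, whereas day 10 replicate 1 was inside the vehicle range and the other day 10 libraries were inside or near the day 5 range. The log2 fold change was 0.81 (SE 0.17) at day 5 and 0.70 (SE 0.17) at day 10 against vehicle, and -0.12 (SE 0.17) between the exposed groups. Mab21l1 in its own row did not follow, with 185 ± 11.0, 187 ± 12.8 and 190.0 ± 19.6 CPM in vehicle, day 5 and day 10, a log2 fold change of 0.02 (edgeR adjusted p 0.963) at day 5 and 0.04 (edgeR adjusted p 0.885) at day 10. The Nbea row thus went from 44.0% ± 4.16 of the counts of the pair in vehicle to 57.6% ± 3.48 at day 5 and 55.0% ± 7.24 at day 10. In day 10 replicate 1 that share was 44.4%, and in the other day 10 libraries 56.6% to 60.1%, and its 95% Wilson interval reached no further than 3.84 points either way, a bound that covers counting error only.

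The members' calls in the fit over all rows are part of how they were chosen and support nothing here. At day 10 against vehicle, Nbea passed upward and Mppe1 downward, where edgeR called 7.08% of the 13181 tested rows (an adjusted p under 0.05), 3.93% upward and 3.15% downward. At day 5 against vehicle, Sox4 and Nbea passed upward, where 0.660% of rows were called, 0.410% upward. Nbea and Mppe1 are among the 3981 tested rows opposite protein-coding genes. Of these, 8.74% were called higher and 163 rows lower at day 10, and 1.21% higher at day 5. At day 5 the groups of 3 members, Sox11, Sox4 and Nbea, did not overlap with vehicle and lay above it, as did those of 5.85% of all tested rows. At day 10 those of Sox4 lay above vehicle without overlap (4.98% of all tested rows) and those of Mppe1 below (5.01%). With 1 library left out, the day 10 call of Mppe1 was kept in 5 of 12 sets (lost without any 1 vehicle library or day 10 replicate 2, 3 or 5), that of Nbea in 8 (lost without vehicle replicate 2 or 4 or day 10 replicate 2 or 5), and its day 5 call in 6 (lost without vehicle replicate 2, 4 or 6 or day 5 replicate 5, 6 or 8). The day 5 call of Sox4 was kept in 5 sets and lost without vehicle replicate 2, 4 or 6 or any 1 of the day 5 libraries, with adjusted p up to 0.156. Between day 10 and day 5 edgeR called 0 members, with 3 at an unadjusted p under 0.05, while DESeq2 called 0 and limma-voom 1. In that comparison 10.1% of all tested rows were called, and 6.76% lay lower without overlap, as Sox4 did. Just inside the threshold were Sox4 at day 5 (edgeR adjusted p 0.0384) and Mppe1 at day 10 (0.0338), and just outside it were Sox11 at day 5 (0.0904) and Mppe1 between the days (0.0889).

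**Figure D2:**
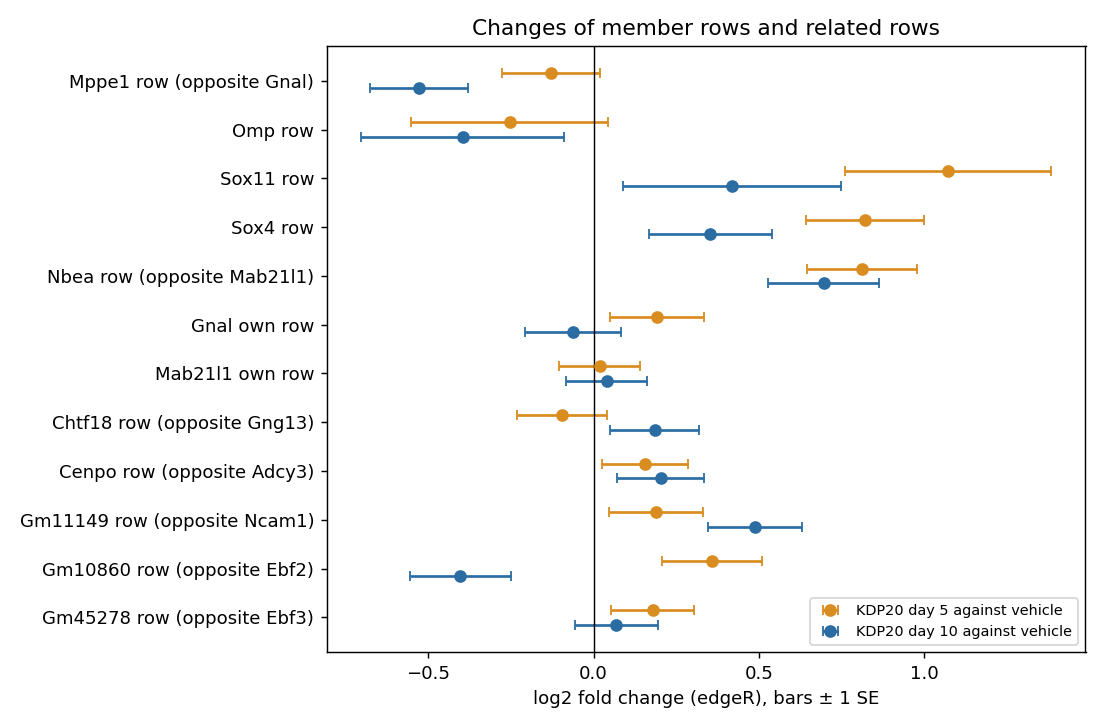
Log2 fold change against vehicle for the member rows, the own rows of Gnal and Mab21l1, and rows opposite 5 other olfactory neuron genes, with points for KDP20 day 5 and day 10 and bars of ± 1 SE from edgeR. Sox11, Sox4 and Nbea are furthest to the right at day 5, Mppe1 is furthest to the left at day 10, and the own rows of Gnal and Mab21l1 lie near 0.

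Compared per length, the Mppe1 row lay far above the others. It stood at 1101 ± 134 CPM per exon kilobase in vehicle. Omp followed at 13.1 ± 5.38, Sox4 at 5.51 ± 0.514, Nbea at 4.68 ± 0.822 and Sox11 at 1.29 ± 0.582, all in CPM per exon kilobase. Sox4 and Nbea, neighbours in this order, did not differ beyond their spread, while the other neighbours did. On this scale the own rows of Gnal and Mab21l1 lay at 9.90 and 74.3, so Gnal was below its opposite row and Mab21l1 above. The lengths take all exons of a row, and the exons shared with Mab21l1 are 3.13% of those of Nbea. Where in a row its reads fell was not tested, so the order is not settled for Mppe1, Sox4 and Nbea. The level of the Omp row was about that of the own row of Gnal, although Omp is among the abundant mRNAs of mature olfactory neurons.

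The balance of Mppe1 or Omp against Sox11 or Sox4 was described as the difference of log2 CPM within each library. Omp minus Sox11 was 1.33 ± 0.13 in vehicle, 0.02 ± 0.36 at day 5 and 0.53 ± 0.44 at day 10 (mean ± SD, n = 4). Vehicle libraries ran from 1.16 to 1.49, day 5 from -0.39 to 0.45 and day 10 from 0.20 to 1.15, so each exposed library was below each vehicle library, with day 10 replicate 1 just below. The SD of the difference was below that of either row alone in vehicle (log2 CPM SD of 0.68 for Omp and 0.70 for Sox11), but not at day 5 or day 10, where Sox11 alone had an SD of 0.33 and 0.42. Over the 12 libraries, deviations of Omp and Sox11 from the group means had a Pearson r of 0.81 and a Spearman rho of 0.80, and r was 0.64 without day 5 replicate 6 and vehicle replicate 5, where Omp was furthest from the median. Both rows share a low count and the depth of the library, and r is given as a description.

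Mppe1 minus Sox4 was 7.18 ± 0.13 in vehicle, 6.25 ± 0.28 at day 5 and 6.28 ± 0.32 at day 10. The 4 vehicle libraries (7.04 to 7.31) were again above the 8 exposed libraries (5.83 to 6.58). Where Sox4 was paired with Omp the groups overlapped, with -0.02 ± 0.77, -0.996 ± 0.45 and -0.67 ± 0.41 in vehicle, day 5 and day 10. Mppe1 minus Sox11 was 8.52 ± 0.83, 7.27 ± 0.28 and 7.49 ± 0.56, with day 5 below vehicle and day 10 overlapping it. All 4 pairs were lower in exposed groups on average, and that direction follows from the values that chose the rows. Within groups Sox4 had a Pearson r of -0.17 with Sox11 and -0.06 with Nbea over 12 libraries (Spearman rho -0.10 and -0.05). Without day 5 replicates 5 and 6, where Sox4 was furthest from the median, r was -0.55 and -0.42, so these descriptions rest on those libraries.

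**Figure D3:**
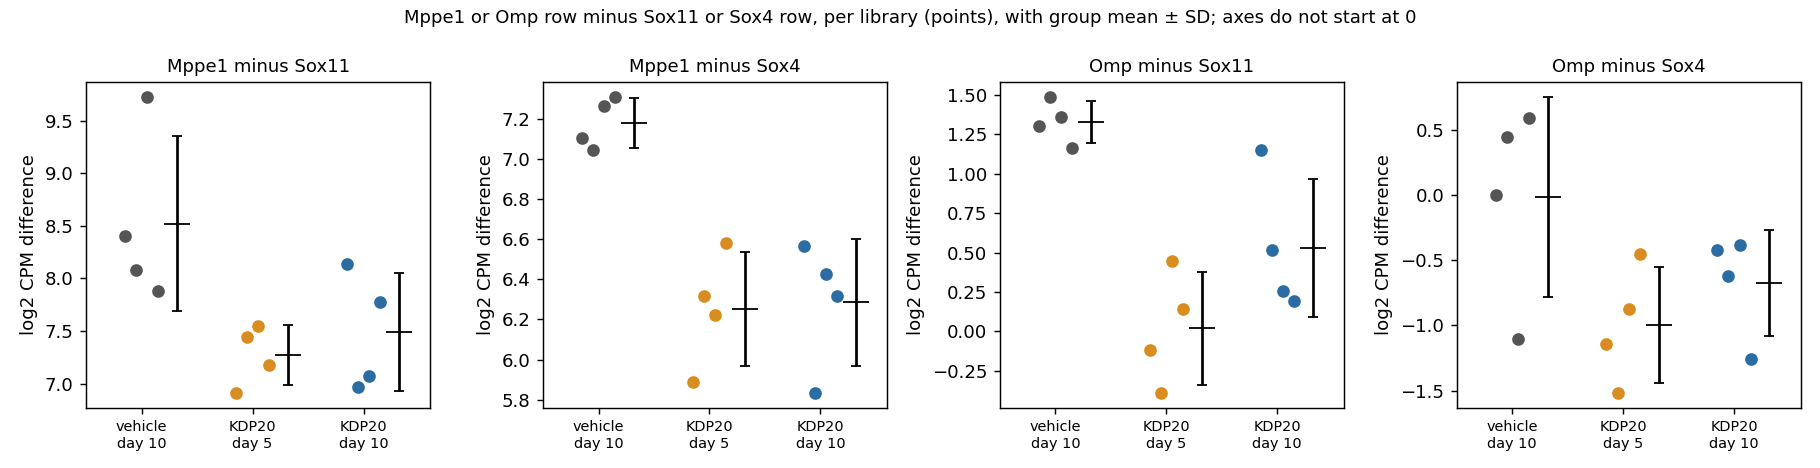
Difference of log2 CPM between the Mppe1 or Omp row and the Sox11 or Sox4 row in each library, with group mean ± SD (n = 4) and axes that do not start at 0. Omp minus Sox11 is 1.16 to 1.49 in vehicle and below that in all exposed libraries, and Mppe1 minus Sox4 is 7.04 to 7.31 in vehicle against 5.83 to 6.58 in exposed libraries.

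Day 10 values of Mppe1 and Nbea moved with the share of CT010467.2, and those of Sox4 did not. Among the day 10 libraries, Mppe1 was lowest in replicate 2, which had the highest share of that row, and highest in replicate 1, with 11.2%, the lowest share. Nbea at day 10 was lowest in replicate 1 and 243 to 294 CPM in the other 3. With the share as a covariate, the day 10 log2 fold change of Mppe1 went from -0.53 to -0.08 and that of Nbea from 0.70 to 0.10. With day 10 replicates 2, 3 and 5 left out, which leaves 1 day 10 library, they were -0.20 and 0.13. The same settings gave 0.45 and 0.43 for Sox4 and 0.46 and 0.06 for Sox11 at day 10, while Omp turned to 0.23 with the covariate. At day 5 the covariate gave 0.84 for Sox4, 1.08 for Sox11 and 0.70 for Nbea, close to the values without it, so at day 5 the differences were of similar size with this share in the fit. The large shares, 17.9% to 25.5%, occurred only in day 10 libraries. With the covariate, the share and the day 10 exposure therefore cannot be told apart, here or in the paragraphs below.

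**Figure D4:**
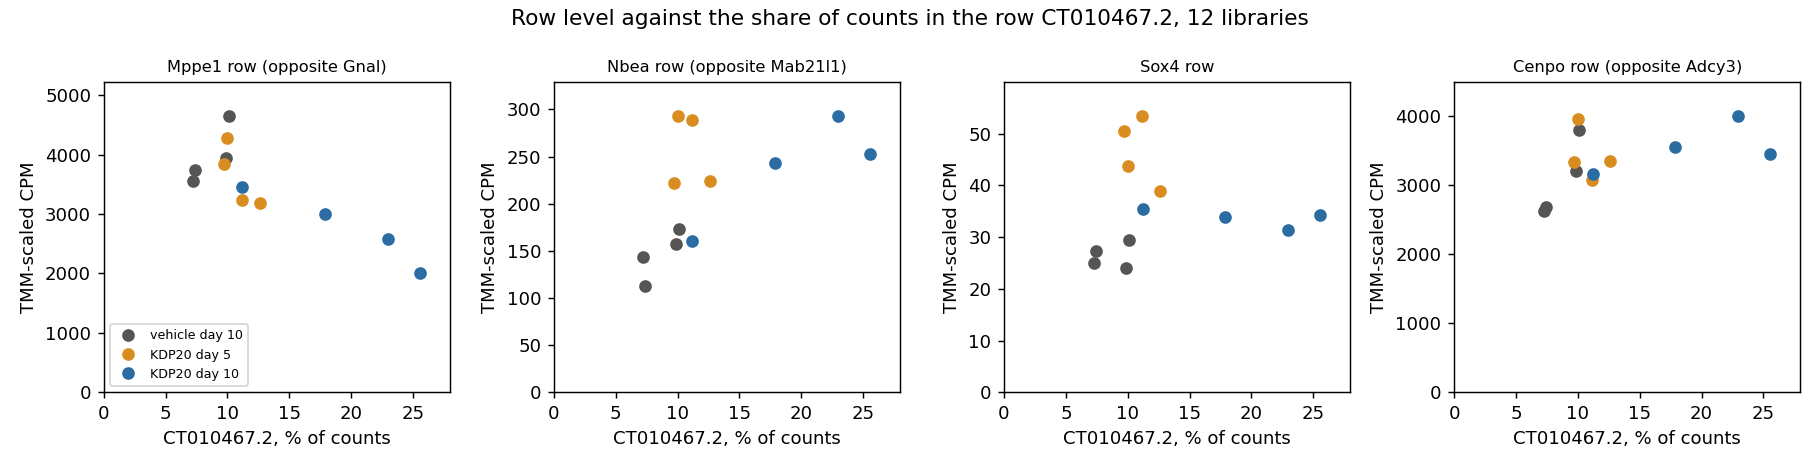
TMM-scaled CPM of the Mppe1, Nbea, Sox4 and Cenpo rows against the percent of counts in the row CT010467.2, with 1 point per library and colours for the 3 groups. Day 10 replicates 2, 3 and 5 lie at 17.9% to 25.5% and carry the lowest Mppe1 values, while Sox4 at day 10 is level across the shares.

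The rest of the odour transduction cascade was called about as often as rows in general. By own rows, edgeR called 1 of 15 tested genes of 19 listed at day 10 against vehicle, where 7.08% of all tested rows were called, with a median log2 fold change of -0.06 beside -0.01 over all tested rows. At day 5, where 0.660% of all tested rows were called, it called 0 of 15 (1 at an unadjusted p under 0.05, and 0 by DESeq2 and by limma-voom), with a median of -0.12 beside -0.03. The gene called at day 10 was Slc12a2, the chloride importer that loads olfactory cilia and is also made by gland and airway cells, which rose to 35.3 ± 9.15 from 19.7 ± 2.23 CPM (a log2 fold change of 0.83 with an SE of 0.22 and an edgeR adjusted p of 0.0253), with no overlap. That call was lost without vehicle replicate 2, 5 or 6 or day 10 replicate 2, 3 or 5, with adjusted p up to 0.117, and with the CT010467.2 covariate the value was 0.40. Adcy3, the cyclase of odour transduction, stood at 109 ± 6.16, 99.7 ± 3.64 and 115 ± 12.6 CPM in vehicle, day 5 and day 10, and its day 10 value did not pass (0.09, edgeR adjusted p 0.734).

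Rows opposite Gng13 and Adcy3 were about as abundant as Mppe1, and their means were higher at day 10 than in vehicle. Chtf18, which encodes a clamp loader of replication, covers 51.6% of the exon bases of Gng13, and stood at 2943 ± 409, 2754 ± 415 and 3345 ± 435 CPM in vehicle, day 5 and day 10. Cenpo, which encodes a centromere protein, covers 22.1% of the exon bases of Adcy3 and stood at 3073 ± 543, 3423 ± 376 and 3538 ± 351 CPM. Against vehicle at day 10 the log2 fold changes were 0.18 (SE 0.13, edgeR adjusted p 0.431) and 0.20 (SE 0.13, edgeR adjusted p 0.363). These rows held 99.4% to 99.8% and 96.0% to 97.5% of the counts of their pairs, much like Mppe1 with Gnal. Of the 3 tested rows opposite odour transduction genes besides Mppe1, edgeR called 0 at either day against vehicle, 0 had an unadjusted p under 0.05, and DESeq2 and limma-voom called 0. Their median was 0.18 at day 10 beside 0.08 over the 3981 tested rows opposite protein-coding genes. Of those 3981 rows, 8.74% were called higher at day 10 and 1.21% at day 5. Within groups, Mppe1 varied little with Cenpo (r 0.36 over 12 libraries), while Cenpo and Chtf18 varied together (r 0.93), as a description of rows that share their libraries.

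**Figure D5:**
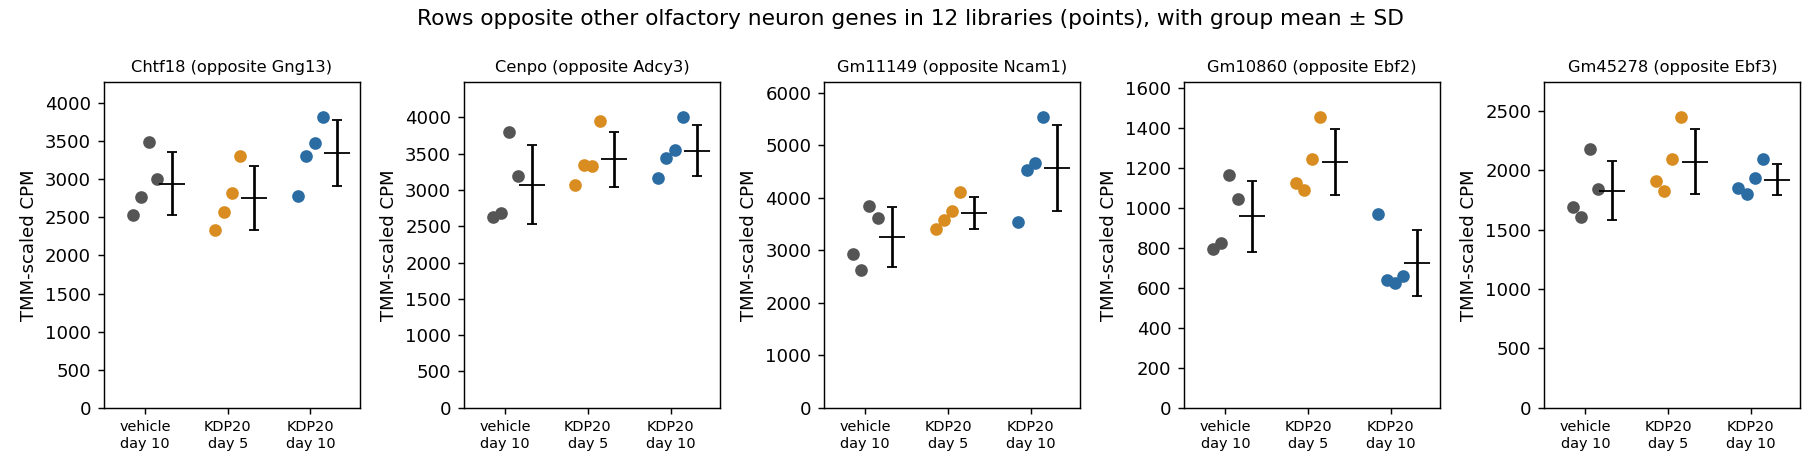
Level of the rows opposite Gng13, Adcy3, Ncam1, Ebf2 and Ebf3 in 12 libraries, in TMM-scaled CPM from 0, with group mean ± SD (n = 4). Gm11149 is higher in day 10 replicates 2, 3 and 5, Gm10860 is at 626 to 659 CPM in those libraries and at 970.2 in day 10 replicate 1, and the others overlap between groups.

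Genes of mature olfactory neurons gave no call against vehicle by own rows. Of 13 tested genes, edgeR called 0 at day 10 (1 at an unadjusted p under 0.05, and 0 by DESeq2 and by limma-voom), with a median of 0.12, and 0 at day 5 (0 at an unadjusted p under 0.05, and 0 by DESeq2 and by limma-voom), with a median of -0.20. With 7.08% and 0.660% of all tested rows called at day 10 and day 5, a count of 0 in a list of this size is near the background. Kirrel3, an adhesion protein that sorts olfactory axons, stood at 111 ± 4.99, 96.7 ± 20.2 and 133 ± 6.01 CPM in vehicle, day 5 and day 10. Ebf1, a transcription factor of olfactory neurons, stood at 83.9 ± 5.48, 80.6 ± 11.4 and 90.9 ± 11.4 CPM, and its groups overlapped.

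Of 2 rows opposite mature neuron genes, edgeR called 1 higher at day 10, the other way from Mppe1, where 8.74% of rows opposite protein-coding genes were called higher. This was Gm11149, opposite the adhesion gene Ncam1, which rose to 4569 ± 818 from 3257 ± 571 CPM (a log2 fold change of 0.49 with an SE of 0.14 and an edgeR adjusted p of 0.0381). The groups overlapped, and the call held in 4 of 12 sets with 1 library left out. It was lost without vehicle replicate 2, 4 or 6, day 5 replicate 6 or 7, or day 10 replicate 2, 3 or 5, with adjusted p up to 0.166, and with the CT010467.2 covariate the value was 0.09. Within groups Gm11149 varied with Nbea (r 0.84 over 12 libraries, as a description of rows that share their libraries). At day 5, where 1.21% of rows opposite protein-coding genes were called higher, edgeR called 0 of the 2 rows opposite mature neuron genes (1 at an unadjusted p under 0.05, and 1 by DESeq2 and by limma-voom).

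Among progenitor and neurogenesis factors, 14 had enough counts to test by own rows. At day 10 edgeR called 0 (1 at an unadjusted p under 0.05, and 1 by DESeq2 and by limma-voom), with a median of 0.02, and at day 5 it called 0 (2 at an unadjusted p under 0.05, 0 by DESeq2 and 1 by limma-voom), with a median of 0.16 and 3 of 14 below vehicle. Of all tested rows, 7.08% were called at day 10 and 0.660% at day 5, so a count of 0 in 14 is near the background. Insm1, which drives progenitors out of division, was singled out after its values were seen. It stood at 6.57 ± 5.24, 17.5 ± 7.36 and 14.7 ± 2.66 CPM in vehicle, day 5 and day 10, a log2 fold change of 1.42 (edgeR adjusted p 0.0868) at day 5 and 1.18 (edgeR adjusted p 0.0839) at day 10, neither past the threshold. The abundant factors Emx2 and Pax6 stood at 74.9 ± 18.7 and 72.2 ± 4.37 CPM in vehicle, at 74.5 ± 5.65 and 74.1 ± 8.54 CPM at day 5, and at 96.4 ± 22.2 and 67.3 ± 6.67 CPM at day 10. The day 10 value of Emx2 did not pass the test (0.37, edgeR adjusted p 0.22), and the groups of both genes overlapped.

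Neurog1 and Neurod1, basic helix-loop-helix factors that mark olfactory progenitors and that bind letters such as those shown upstream of Sox11 and Sox4, held 0 to 11 counts per library and were not tested. Against vehicle, 8.74% of rows opposite protein-coding genes were called higher at day 10 and 1.21% at day 5. Rows opposite progenitor genes had no called member in either comparison. Of 6 such rows edgeR called 0 at day 10 (2 at an unadjusted p under 0.05, and 0 by DESeq2 and by limma-voom) and 0 at day 5 (3 at an unadjusted p under 0.05, and 1 by each other tool). Gm10860, opposite the olfactory neuron factor Ebf2, stood at 957 ± 177, 1227 ± 165 and 723 ± 165 CPM in vehicle, day 5 and day 10, and fell between day 5 and day 10 with no overlap, as called for 13.6% of rows opposite protein-coding genes (a log2 fold change of -0.76 with an SE of 0.15 and an edgeR adjusted p of 0.00395). That call held in all 12 sets with 1 library left out but not with the CT010467.2 covariate (edgeR adjusted p 0.382). Its variation within groups went with that of Mppe1 (r 0.78 over 12 libraries). Gm45278, opposite the related factor Ebf3, stood at 1829 ± 250.5, 2070.0 ± 274 and 1918 ± 130 CPM and overlapped in all groups.

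Immature neuron and axon growth genes were mostly at low counts. By own rows 11 of 20 were tested, and edgeR called 0 at day 10 (0 at an unadjusted p under 0.05, and 0 by DESeq2 and by limma-voom), with a median of 0.06, and 1 lower at day 5, with a median of 0.15. The share called over all tested rows was 7.08% at day 10 and 0.660% at day 5. Dbn1, an actin-binding protein of growing neurites that other cells also make, fell at day 5 to 83.9 ± 7.51 from 131 ± 5.79 CPM (a log2 fold change of -0.64 with an SE of 0.14 and an edgeR adjusted p of 0.0384) and stood at 137 ± 26.4 CPM at day 10. The day 5 call was kept in 4 of 12 sets with 1 library left out. It was lost without vehicle replicate 2, 4 or 6, without any 1 of the 4 day 5 libraries, or without day 10 replicate 3, with adjusted p up to 0.168. Gap43, the classical marker of immature olfactory neurons, held 0 to 10 counts per library, and Dcx held 2 to 14, so these could not be resolved.

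At day 5, when Sox4 and Sox11 were highest, rows opposite cell division genes were higher as well. The list was written with earlier results of these data known, so its calls lend no support to the members' values. Of 5 rows opposite listed division genes, edgeR called 4 higher, with a median of 0.88 beside 0.17 over rows opposite protein-coding genes, of which 1.21% were called higher. They lie opposite Prc1, Kif20a, Ncapg and Ccnd1, genes of cytokinesis, mitosis, chromosome condensation and entry into the cycle. Summed over the 5 rows, the level was 745 to 1112 CPM in vehicle, 1219.6 to 1718 CPM at day 5 and 723 to 1042 CPM at day 10, with no overlap of day 5 with either other group. Most of that sum came from the row opposite Ccnd1, at 771 ± 141 CPM in vehicle and 1226 ± 227 CPM at day 5. Its own vehicle and day 5 groups overlapped. The 4 calls were kept in 5 to 10 of 12 sets with 1 library left out. They were LTO1, opposite Ccnd1 (lost without vehicle replicate 2, 4 or 6, day 5 replicate 5, 6 or 8, or day 10 replicate 3), Lcorl, opposite Ncapg (vehicle replicate 2 or 4, or day 5 replicate 5, 6 or 8), Cdc23, opposite Kif20a (vehicle replicate 4 or 6, or day 5 replicate 5 or 8), and Rccd1, opposite Prc1 (vehicle replicate 2 or day 5 replicate 5). At day 5, where 0.660% of all tested rows were called, edgeR called 0 of 7 tested division genes by own rows (1 at an unadjusted p under 0.05, and 1 by DESeq2 and by limma-voom), and Bub1 was at 0 in all 12 libraries. That 1 gene was Prc1, singled out after its values were seen. Its own row went the other way from the row opposite it, with 112 ± 18.2 CPM in vehicle and 71.3 ± 15.05 CPM at day 5 (a log2 fold change of -0.65 and an edgeR adjusted p of 0.068). At day 10, where 3.15% of all tested rows were called lower, edgeR called 1 of the 7 own rows. This was Ncapg, lower at 32.8 ± 20.8 against 63.0 ± 6.67 CPM in vehicle (-0.91, edgeR adjusted p 0.0348), with groups that overlapped. That call was lost without any 1 vehicle library or day 10 replicate 2, 3 or 5, with adjusted p up to 0.14, and the value was 0.04 with the CT010467.2 covariate.

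Against vehicle edgeR called 7.08% of all tested rows at day 10 and 0.660% at day 5. At day 5 it called 1 of 2 rows opposite horizontal basal cell genes, where 1.21% of rows opposite protein-coding genes were called higher. The row Gm44323, opposite the basal cell keratin Krt5, rose at day 5 to 712 ± 293 from 371 ± 109 CPM (a log2 fold change of 0.94 with an SE of 0.22 and an edgeR adjusted p of 0.0469). It shares 129 exon bases with Krt5, and its groups overlapped. The call was kept in 4 of 12 sets with 1 library left out and lost without vehicle replicate 2, 5 or 6, day 5 replicate 5, 6 or 8, or day 10 replicate 3 or 5, with adjusted p up to 0.211. By own rows 0 of 6 tested horizontal basal cell genes were called at day 5 (1 at an unadjusted p under 0.05, and 0 by DESeq2 and by limma-voom). At day 10 against vehicle 0 were called (3 at an unadjusted p under 0.05, 1 by DESeq2 and 0 by limma-voom). Between day 10 and day 5, where 10.1% of all tested rows were called, edgeR called Itgb4 higher at day 10 (0.85, edgeR adjusted p 0.00542). The row Gm47079, opposite Icam1, was called lower there (-0.98, edgeR adjusted p 0.0333). With the CT010467.2 covariate the values were 0.30 and -0.36, and edgeR called neither.

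Markers of other cells also differed between libraries. Rows opposite 4 of 8 skeletal muscle genes summed to 25.7 to 216 CPM in vehicle, 28.5 to 1959 CPM at day 5 and 45.8 to 1194 CPM at day 10, a range within each group that none of the 5 members showed. At day 5, where 1.21% of rows opposite protein-coding genes were called higher, all 4 muscle rows had an unadjusted p under 0.05. Their median was 3.13, and edgeR called 1 higher. This was Gm48752, opposite the myosin-binding gene Mybpc1, at 17.8 ± 13.3 CPM against 3.80 ± 0.719 CPM in vehicle, with no overlap (2.19, edgeR adjusted p 0.0344), a call lost without vehicle replicate 2, 4 or 6 or day 5 replicate 5, 6 or 8 (adjusted p up to 0.146). By own rows edgeR called 0 of 3 tested muscle genes at day 5 (2 at an unadjusted p under 0.05, and 0 by DESeq2 and by limma-voom). At day 10, where 3.93% of all tested rows were called higher, it called 1 higher, the calcium pump gene Atp2a1 (0.57, edgeR adjusted p 0.0385). That call was kept in 2 of 12 sets with 1 library left out, those without day 5 replicate 8 or day 10 replicate 1.

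Own rows of 12 sustentacular and Bowman gland genes summed to 667 to 1146 CPM in vehicle, 476 to 1214 CPM at day 5 and 406 to 746 CPM at day 10. Of 11 tested, edgeR called 1 lower at day 10, where 3.15% of all tested rows were called lower. It was Obp2a, an odorant-binding protein gene, which fell to 179 ± 103 from 466 ± 180.0 CPM with no overlap (-1.38, edgeR adjusted p 0.027). The call was lost without vehicle replicate 2 or 6 or day 10 replicate 2, 3 or 5 (adjusted p up to 0.108) and by DESeq2 (0.0808), and with the CT010467.2 covariate the value was -0.67. Galnt5, the 1 row opposite a gene of this list (Ermn), was lower at day 10 (-0.70, edgeR adjusted p 0.0413), with groups that overlapped and a call kept in 4 of 12 sets. It was lost without any 1 vehicle library, day 5 replicate 5 or 7, or day 10 replicate 2 or 5. Ciliated airway genes summed by own rows to 384 to 432, 314 to 368 and 279 to 387 CPM in vehicle, day 5 and day 10, and edgeR called 1 of 8 lower at day 10, Ccdc39 (-0.83, edgeR adjusted p 0.0221), with groups that overlapped. That call was lost without vehicle replicate 2, 4 or 6 or day 10 replicate 2, 3 or 5 (adjusted p up to 0.108), and the value was 0.11 with the covariate. Own rows of 11 ensheathing and glial genes summed to 72.6 to 97.6, 70.5 to 94.3 and 73.1 to 84.7 CPM in vehicle, day 5 and day 10. Own rows of 12 immune genes, 2 of them at 0 in every library, summed to 196 to 232, 219.7 to 243 and 231 to 293 CPM. Of 3 rows opposite immune genes, edgeR called 1 lower at day 10, where 163 of 3981 rows opposite protein-coding genes were. It was Gm11505, opposite Mpo, at 0.428 ± 0.289 CPM against 11.8 ± 8.61 CPM in vehicle, with no overlap (-4.59, edgeR adjusted p 0.0103). It held 0 to 78 counts per library. The call was lost without day 10 replicate 5, and DESeq2 and limma-voom called 0 of the 3 rows. With the covariate the value was -5.59, not called. Sox4 is also made by epithelial and immune cells, and the part of any of these cells in the members' values was not tested.

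The rows that followed each member most closely were found by the Pearson r of log2 CPM over the 12 libraries, among rows with a mean of at least 3, and describe likeness only, since all rows share the libraries and their depth. For Mppe1 they were Tcte1, which lies opposite Tmem151b (r 0.97), Ftsj3 (0.97) and Pdcd4 (0.96). For Omp they were Tcf20 (0.93), the small nuclear RNA Rn7sk (0.92) and Actn4, opposite Capn12 (0.92), and for Sox11 they were D630036H23Rik, opposite Ispd (0.89), Gse1, opposite Gins2 (0.88), and Gpi1 (0.86). Sox4 was followed by Sec24d (0.90), Gm44492, opposite the histone gene Hist2h2ac (0.90), and Mtif3, opposite Gtf3a (0.89). Nbea was followed by 4930500M09Rik, opposite Uhmk1 (0.96), R74862, opposite Cd81 (0.95), and Gm15952, opposite Dcun1d1 (0.94). None of these 15 rows is named for, or lies opposite, a gene of the olfactory lists. Within groups the r values stayed between 0.91 and 0.96 for Mppe1 and 0.92 and 0.97 for Omp, but fell to 0.58 to 0.70 for Sox4, where the order of the groups carried much of the likeness.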

How the data were processed

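Gene counts were deposited for 12 libraries of mouse nasal RNA, for which total RNA and a SMARTER mRNA-Seq kit are named per the labels. Per the submitters' processing notes, the authors used FastQC, Trim Galore, STAR and HTSeq with mm10, and the deposited unit is raw counts. The sources used here do not give versions, annotation, counting mode or strand setting.

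Positions came from GENCODE M21, which held 55227 of 55487 row identifiers, and overlaps were computed with bedtools 2.31.1 under Python 3.11.15. A row lies opposite a gene when their exons overlap by at least 50 bases on different strands. Counts were tested with the edgeR 4.0.16 quasi-likelihood test in R 4.3.3 (filterByExpr, TMM, group alone, all 12 libraries, Benjamini-Hochberg over 13181 rows, which held 98.3% of counts). Of the rows, 21025 were 0 in every library. The common biological coefficient of variation was 0.213. Log2 CPM per library used a prior count of 2. The 18 replicate pairs showed 3.17 to 22.4 times the counting variance, so none was treated as a duplicate. Tested on simulated data for day 10 against vehicle with 13181 rows, the fit found 51% of the 100 rows changed 2-fold and 90% of the 100 changed 4-fold, with 5.37% false calls. The simulated counts were independent between rows, with no effect shared by libraries such as the large CT010467.2 share. These rates therefore need not hold for the real libraries.

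The members and the gene lists were chosen with earlier results of these data known. The naming rule takes the members, the own rows of Gnal and Mab21l1, up to 4 called genes and the 2 most abundant genes of each list, and the 3 rows most like each member. Insm1, genes named for low counts, and rows opposite Gng13, Adcy3, Ebf2 and Ebf3 were chosen after their values were seen. Some listed genes, and the rows opposite them, are not reported here and were left out of the list counts. Promoters came from RefSeq GRCm38.p6, which had an entry for Sox11, Sox4 and Nbea. Alternatives were other scalings, filters, DESeq2 1.42.0, limma-voom (limma 3.58.1), the 8 compared libraries alone, a replicate block, a GC correction (loess, span 0.5), the CT010467.2 share as a covariate, that row left out and each library left out. Leaving out day 10 replicates 2, 3 and 5 was added after seeing the data.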

Additional observations from a re-analysis of the deposited data

Results flagged for a closer look

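In 51 groups of 4 libraries checked for 1 library far from the rest (by Dixon's critical value), 2 stood out, and chance alone is expected to give some. Gm10860, opposite Ebf2, was at 970.2 CPM in day 10 replicate 1 and at 626 to 659 CPM in the other day 10 libraries, which are those with the large CT010467.2 share. Adcy3 was at 94.3 CPM in day 5 replicate 6 and at 101 to 102 CPM in the other day 5 libraries.

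The neuron lists held 3 rows that differed between the exposed groups by the test of day 10 against day 5 itself. In that comparison 10.1% of all tested rows were called, so calls in these lists were no more frequent than among rows in general. By own rows, Dbn1 (log2 fold change 0.70, edgeR adjusted p 0.00449) and Kirrel3 (0.46, edgeR adjusted p 0.0442) were higher at day 10 than at day 5. The Kirrel3 call held in 2 of 12 sets with 1 library left out, with adjusted p up to 0.157, and was kept without day 5 replicate 5 or day 10 replicate 1. Among rows opposite listed genes, Gm10860 was lower (-0.76), where 13.6% of rows opposite protein-coding genes were called lower. With the CT010467.2 covariate edgeR called none of the 3, and the values kept their signs, with 0.54 for Dbn1, 0.42 for Kirrel3 and -0.50 for Gm10860.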

How the results depend on the processing

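No member changed sign under another scaling, filter or tool in any comparison, or with 1 library left out against vehicle. Omp turned from -0.40 to 0.23 at day 10 with the CT010467.2 covariate. Large shares of that row occurred only at day 10, so this covariate cannot be told apart from the day 10 exposure. Below, own and opposite are the calls among neuron list genes by their own rows and by rows opposite them, and causes were not tested. At day 10 against vehicle edgeR called 933 rows, 1 own and 1 opposite. With the 8 compared libraries alone these were 423, 0 and 0, with GC correction 401 rows, and with the covariate 0, 0 and 0 (500 rows at an unadjusted p under 0.05). With the 3 day 10 libraries 2, 3 and 5 left out they were 0, 0 and 0 (912 unadjusted). No filter gave 2 own, and DESeq2 and limma-voom each gave 2 own and 2 opposite. Leaving out 1 library gave 95 to 2684, 0 to 4 and 0 to 2. At day 5 against vehicle edgeR called 87, 1 and 0 (4 opposite rows unadjusted). These were 278, 2 and 1 with no filter, 135 rows with 10 CPM in 4 libraries, 514 rows and 2 opposite by DESeq2, 284, 2 and 2 by limma-voom, and 656, 2 and 2 with 8 libraries. The covariate gave 370 rows, the 3 libraries left out 589, 2 and 2, and 1 library left out 5 to 569, 0 to 2 and 0 to 2. Between day 10 and day 5 edgeR called 1337, 2 and 1, with the covariate 2, 0 and 0, with the 3 libraries left out 0, 0 and 0 (1142 rows unadjusted), and with 1 left out 623 to 2689, 1 to 4 and 1 to 3. There, upper-quartile scaling, no filter, 8 libraries and GC correction each gave 1 own.

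The 5 same-numbered pairs had correlations of their deviations from -0.10 to 0.14, and pairs with different numbers from -0.13 to 0.14. No pairing by replicate number was seen, but 5 pairs are too few to settle it. A replicate block gave 1701 rows and 3 opposite at day 10, 33 rows and 0 own at day 5 (5 own unadjusted), and 1 own and 3 opposite between the days. It gave log2 fold changes of -0.81 for Mppe1 at day 10 (-0.53 without the block), and -0.42 for Mppe1 (-0.13) and 0.64 for Nbea (0.81) at day 5. Only numbers 2, 5 and 6 occur in more than 1 group, so the values with the block rest on those libraries. Day 10 replicates 1 and 3 add nothing to them. In day 10 replicates 2 and 5, which remain, CT010467.2 took 25.5% and 22.9% of counts. Depth limits Omp, Sox11 and Sox4 most, which rest on 9 to 135 counts per library.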
